A study of Homo sapiens with 9 samples.

Results

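The 10 genes described here load fatty acids onto coenzyme A, desaturate or elongate them, and place them into membrane phospholipids: the acyl-CoA synthetases ACSL1, ACSL3, ACSL4 and ACSL5, the lysophospholipid acyltransferases LPCAT1 and LPCAT3, the desaturases SCD, FADS1 and FADS2, and the elongase ELOVL5. They were taken by gene name from a table of 37118 genes, and all 10 were found. Their transcripts were measured by RNA sequencing of polyadenylated RNA in A375 cells, a human melanoma line long in culture that carries an activating BRAF mutation and is labelled wild type in every group. Cells received metformin, a biguanide used against type II diabetes whose known targets include the mitochondrial respiratory chain, at 0, 20 or 40 mM, with 3 libraries per dose and 9 in all. No source used here gives the length of exposure or says that the 3 libraries of a dose came from separate cultures, so the p-values below measure a spread between libraries that may be purely technical. A375 is 1 line, so the values describe that line.

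A free fatty acid enters lipid metabolism only after an acyl-CoA synthetase has joined it to coenzyme A, and the synthetases differ in which chains they prefer. ACSL4 prefers long polyunsaturated chains such as arachidonic acid, and LPCAT3 then places such chains into phospholipids, where they are the substrate of the lipid peroxidation that drives ferroptosis. Monounsaturated chains made by SCD and activated by ACSL3 oxidise far less easily.

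At 40 against 0 mM ACSL4, ACSL3, LPCAT1 and ELOVL5 fell, and ACSL1, ACSL5 and SCD rose. Of these, the promoters of the 4 synthetases and of LPCAT1 are shown, and those of SCD and ELOVL5 are not. Each stretch is the part of the RefSeq promoter window (GRCh38.p14) from its upstream end to the first base of any GENCODE 29 exon, read 5′ to 3′ on the gene's own strand, with GC boxes (GGGCGG on either strand) in capitals. They lie at chrX:109733404-109733507 on the minus strand for ACSL4, at chr2:222860786-222860933 on the plus strand for ACSL3 and at chr4:184826120-184826218 on the minus strand for ACSL1. The stretch of ACSL5 is at chr10:112375018-112375234 on the plus strand and that of LPCAT1 at chr5:1523978-1524210 on the minus strand. The stretches of ACSL4, ACSL3 and LPCAT1 lie outside the annotated gene, and those of ACSL1 and ACSL5 between exons within the span of a longer annotated form.
ACSL4: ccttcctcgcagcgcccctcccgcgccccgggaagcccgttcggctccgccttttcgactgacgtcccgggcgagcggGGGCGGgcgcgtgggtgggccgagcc
ACSL3: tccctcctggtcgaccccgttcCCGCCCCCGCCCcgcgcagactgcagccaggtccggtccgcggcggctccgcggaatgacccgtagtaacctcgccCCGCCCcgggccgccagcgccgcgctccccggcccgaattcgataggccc
ACSL1: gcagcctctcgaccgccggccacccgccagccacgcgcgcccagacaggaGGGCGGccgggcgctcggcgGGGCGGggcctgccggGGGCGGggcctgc
ACSL5: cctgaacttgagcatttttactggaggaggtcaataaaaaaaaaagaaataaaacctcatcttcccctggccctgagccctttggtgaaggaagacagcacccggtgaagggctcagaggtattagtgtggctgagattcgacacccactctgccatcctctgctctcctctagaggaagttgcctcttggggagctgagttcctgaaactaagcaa
LPCAT1: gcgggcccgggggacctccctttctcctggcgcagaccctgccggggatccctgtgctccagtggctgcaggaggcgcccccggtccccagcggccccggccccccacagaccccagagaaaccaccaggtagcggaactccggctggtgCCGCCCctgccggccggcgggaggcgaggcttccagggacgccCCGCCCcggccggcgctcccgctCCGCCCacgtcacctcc
The printed stretches differ in length, so their box counts do not rank the genes. ACSL4 held 1 GC box in 104 bases. ACSL3, ACSL1 and LPCAT1 held 3 each, in 148, 99 and 233 bases. The whole window of 300 bases at the same start held 3 for each of ACSL4, ACSL3 and LPCAT1, and 6 for ACSL1. The ACSL5 stretch of 217 bases held none and was 48.8% G and C. The other stretches were 78.8% in ACSL4, 77.0% in ACSL3, 85.9% in ACSL1 and 77.7% in LPCAT1. The same stretches of SCD (141 bases) and ELOVL5 (21 bases), not printed, held no GC box either. The whole SCD window held 2, and 21 bases leave little room for one in ELOVL5. Over whole windows of 300 bases (250 before and 50 after the start, 16 windows for the 10 genes), 8 of the 10 genes held a GC box, against 48.3% of all genes with a window; ACSL5 and ELOVL5 were the exceptions. CCAAT on either strand was found for 6 of the 10 genes, against 39.7% of all genes. The cAMP response element TGACGTCA was found for FADS1 and ELOVL5 and in 2.25% of all genes, and the E-box CACGTG for ELOVL5 and in 8.77%. The amino acid response element TGATGNAA was found for 0 of the 10 and in 4.46% of all genes. These are matches of letters and not measured binding.

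Library totals ran from 65738242 to 75629413 counts. Replicate 3 of 40 mM stood apart: it had the lowest total, 4.36% of its counts came from mitochondrial transcripts against 3.01% and 3.27% in the other libraries of that dose, and its distance from them (67.3 and 55.1 in chi-square per gene) exceeded that of any other pair of libraries of 1 dose (13.1 to 26.7). Of 13 melanoma markers, 8 averaged at least 1 FPKM (fragments per kilobase of transcript, scaled to library depth), among them SOX10 at 95.8 FPKM and MITF at 2.95 FPKM, while the pigment cell genes PMEL, MLANA, TYR, DCT and TYRP1 averaged 0.0019 to 0.388 FPKM. The summed FPKM of this list was 661 to 722 at 0 mM, 557 to 569.9 at 20 mM and 431 to 496 at 40 mM. Most of that sum was VIM, which averaged 471 FPKM at 0 mM, 347 FPKM at 20 mM and 264 FPKM at 40 mM. At 40 against 0 mM 4 of the 8 tested (VIM, NES, S100B and MCAM) were called lower. SOX10, MITF, S100A1 and CSPG4 did not pass. SOX10 had 70.7, 78 and 108 FPKM at 40 mM against 93.7 to 114 FPKM at 0 mM. Of the 40 mM libraries, only replicate 3 reached that range (-0.32 ± 0.13 on the log2 scale, adjusted p = 0.057, edgeR). Leaving out 1 library gave 4 to 6 called markers. Of 11 measured markers of other cell types 1 (KRT8) averaged at least 1 FPKM, the leukocyte gene PTPRC was at 0.000456 FPKM, and their sum was 3.84 to 4 FPKM at 40 mM and 3.63 to 3.83 FPKM at 0 mM. The part of these shifts in the results was not tested, and in bulk RNA a change per cell and a change in the mix of cells cannot be told apart.

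ACSL4 fell at both metformin doses, and the other genes had smaller log2 fold changes at 40 against 0 mM, apart from the rare ACSL5. Of the 9 genes with a mean of at least 1 FPKM, 2 rose and 4 fell at 40 against 0 mM at an adjusted p under 0.05 (edgeR's quasi-likelihood test, Benjamini-Hochberg over 12394 genes). Over all tested genes that comparison called 56.2%, made up of 28.8% higher and 27.4% lower. The comparison of 20 with 0 mM had 1 of the 9 higher and 3 lower, beside 31.6% of all genes called (16.3% higher, 15.2% lower). Between the treated doses, 40 against 20 mM, 1 rose and 2 fell, beside 29.3% of all genes called (14.3% higher, 15.1% lower). The shares called are near those of all genes, so the counts do not set the 10 genes apart. The FPKM ranges of 40 and 0 mM were separate for 6 of the 9 (61.1% of all tested genes), those of 20 and 0 mM for 5 (50.5%) and those of 40 and 20 mM for 3 (43.9%). Leaving out replicate 2 of 0 mM, or either replicate 2 or 3 of 20 mM, brought the called genes at 20 against 0 mM to 2. The count for 40 against 20 mM came to 1 when replicate 2 of 0 mM, replicate 1 or 3 of 20 mM, or replicate 1 of 40 mM was left out. The median log2 fold change of the 9 was -0.13 (40 against 0 mM), -0.08 (20 against 0 mM) and -0.03 (40 against 20 mM), where the medians of all tested genes were -0.00076, 0.00051 and -0.00042.

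**Figure D1:**
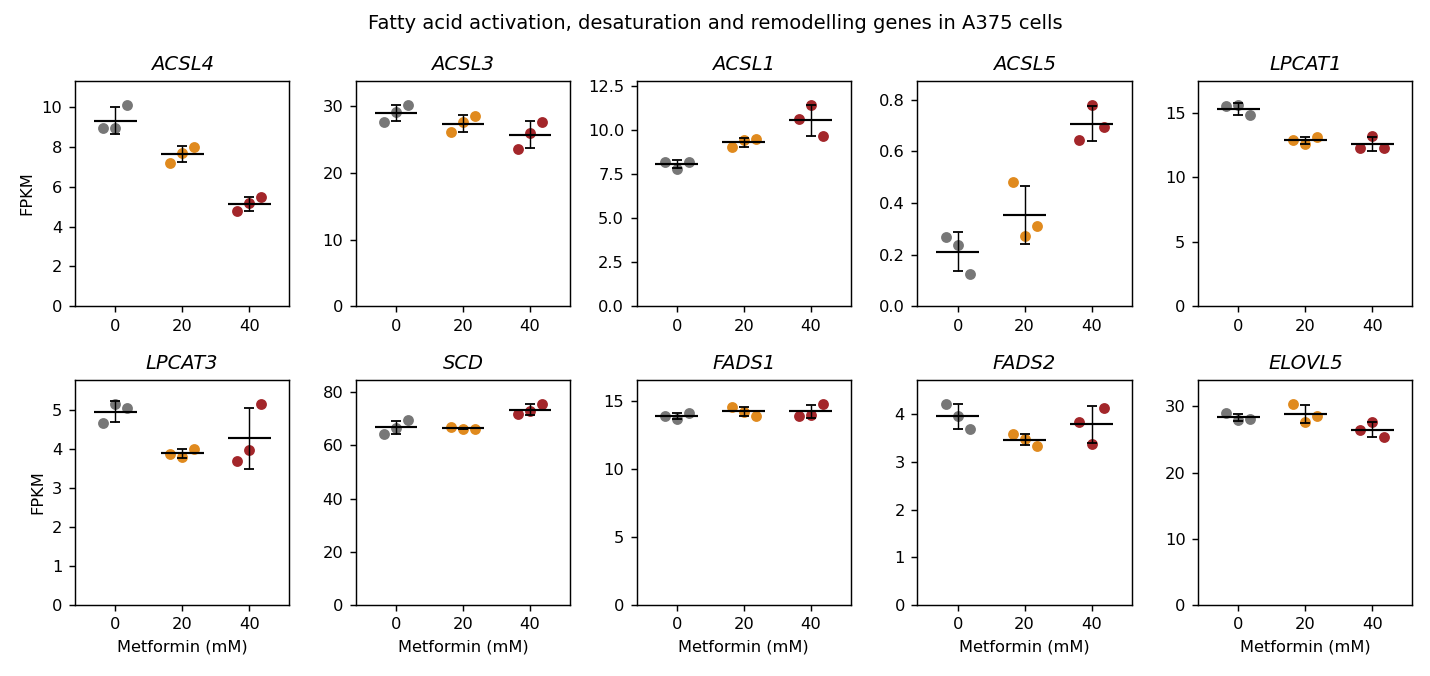
FPKM of the 10 genes by metformin dose in mM, 1 point per library, with the mean as a line and the SD as bars (n = 3). The 3 doses of ACSL4 do not overlap, with 4.76 to 5.47 FPKM at 40 mM and 8.93 to 10.1 FPKM at 0 mM; each panel has its own scale from 0.

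ACSL4, which activates arachidonic and adrenic acid, is encoded on chromosome X at 109624244 to 109733392 on the minus strand in the deposited table. Its level was 8.93, 8.94 and 10.1 FPKM at 0 mM, 7.21, 7.71 and 8.01 FPKM at 20 mM, and 4.76, 5.18 and 5.47 FPKM at 40 mM. No library of one dose reached into the range of another. The level at 40 mM was 0.538 of that at 0 mM, a log2 fold change of -0.89 ± 0.07 (SE; adjusted p = 2e-06, edgeR), and 280 of the 12394 tested genes (2.26%) had a lower one. Against 0 mM, the 20 mM libraries had a log2 fold change of -0.29 ± 0.07 (adjusted p = 0.0084, edgeR), with 1181 genes lower, and at 40 against 20 mM it was -0.60 ± 0.07 (adjusted p = 0.00023, edgeR), with 244 genes lower. All 3 calls held in each of the alternatives tried. The second step of 20 mM was larger than the first by -0.31 ± 0.12 on the log2 scale, which did not pass (adjusted p = 0.14, edgeR). This difference of steps passed for 0 of the 9 genes and for 6.83% of all tested genes; before adjustment 3 of the 9 were under 0.05, namely ACSL4, LPCAT1 and LPCAT3, and DESeq2 and limma also called 0 after adjustment. Without replicate 3 of 40 mM the ACSL4 difference of steps was -0.36, with adjusted p = 0.048 in edgeR.

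ACSL3 was the most abundant synthetase, an enzyme of the endoplasmic reticulum and lipid droplets that activates monounsaturated chains among others. It stood at 27.7, 29.2 and 30.2 FPKM at 0 mM, 26.1, 27.7 and 28.5 FPKM at 20 mM, and 23.6, 26.0 and 27.6 FPKM at 40 mM. The ranges at 40 and 0 mM come close without overlapping, and 20 mM overlaps both. ACSL3 fell at 40 against 0 mM, by 0.21 ± 0.06 on the log2 scale (adjusted p = 0.012, edgeR), and its changes of -0.08 ± 0.06 at 20 against 0 mM and -0.12 ± 0.06 at 40 against 20 mM did not pass (adjusted p = 0.31 and 0.14, edgeR). The call at 40 against 0 mM was lost under limma on log2(TPM + 1) (-0.15, adjusted p = 0.051) and on log2(FPKM + 0.1) (-0.18, adjusted p = 0.054). Without replicate 3 of 40 mM the change at 40 against 20 mM was -0.18 with adjusted p = 0.023 in edgeR.

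ACSL1, an isoform of the mitochondrial outer membrane and endoplasmic reticulum, moved the other way. Its levels were 8.20, 7.80 and 8.20 FPKM at 0 mM, 9.01, 9.44 and 9.47 FPKM at 20 mM, and 10.6, 11.4 and 9.64 FPKM at 40 mM. The 3 doses did not overlap, and replicate 3 of 40 mM was closest to 20 mM. ACSL1 rose at 40 against 0 mM, by 0.35 ± 0.06 on the log2 scale (adjusted p = 0.0004, edgeR), and at 20 against 0 mM, by 0.20 ± 0.06 (adjusted p = 0.022, edgeR). The change of 0.15 ± 0.06 at 40 against 20 mM did not pass (adjusted p = 0.077, edgeR) but was 0.21 with adjusted p = 0.0068 without replicate 3 of 40 mM. Leaving out replicate 2 of 0 mM, or either replicate 2 or 3 of 20 mM, ended the call of 20 against 0 mM, at 0.17 to 0.19 with adjusted p = 0.069 to 0.087 in edgeR, as did the fit with no filter (adjusted p = 0.064, edgeR) and limma on log2(TPM + 1) (adjusted p = 0.068).

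ACSL5, an isoform best known from the intestine, was rare and was the 1 gene of the 10 under the filter of 1 FPKM, with a mean of 0.423 FPKM. Its values were 0.268, 0.238 and 0.125 FPKM at 0 mM (97, 84 and 44 counts), 0.482, 0.270 and 0.309 FPKM at 20 mM (173, 95 and 109 counts) and 0.645, 0.779 and 0.695 FPKM at 40 mM (234, 282 and 221 counts). All 3 libraries of 40 mM lay above every other library. In an edgeR fit of all 37118 genes, of which 20.5% were called in the comparison of 40 with 0 mM, ACSL5 rose there by 1.70 ± 0.31 on the log2 scale (adjusted p = 0.0025), a fold of 3.25. The changes of 0.76 ± 0.31 at 20 against 0 mM and 0.94 ± 0.30 at 40 against 20 mM did not pass (adjusted p = 0.20 and 0.095, edgeR; 8.41% and 7.51% of all genes were called). The last passed without replicate 3 of 0 mM (0.94, adjusted p = 0.045 in edgeR). ACSL5 overlaps the palmitoyltransferase gene ZDHHC6 on the opposite strand by 3953 bases. ZDHHC6, singled out after its values were seen, averaged 16.4 ± 0.0719 FPKM at 40 mM and 13.0 ± 0.178 FPKM at 0 mM (SD, n = 3) and itself rose by 0.31 ± 0.04 on the log2 scale (adjusted p = 0.00011, edgeR). Whether counting used the strand is not given, so reads of this pair may not be told apart.

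The make-up of the synthetase transcripts was compared within each library, where scaling plays no part. ACSL4 made up 19.80%, 19.35% and 20.80% of the summed ACSL FPKM in the 0 mM libraries. Its share was 16.84%, 17.09% and 17.30% in the 20 mM libraries and 11.99%, 11.97% and 12.60% in the 40 mM libraries. The doses did not overlap. The mean share was 12.2% ± 0.361 at 40 mM and 20.0% ± 0.745 at 0 mM (SD, n = 3), a difference of -7.80 percentage points (exact two-sided permutation test, p = 0.1, the smallest that 3 against 3 libraries allow). The difference was -2.91 points for 20 mM, where the share averaged 17.1% ± 0.23, against 0 mM and -4.89 points for 40 against 20 mM, each with an exact permutation p of 0.1. ACSL1 made up 17.3% at 0 mM, 20.8% at 20 mM and 25.1% at 40 mM, and ACSL3 made up 59.6% to 63.6% over all libraries. ACSL5 made up 0.455%, 0.797% and 1.68% in the same order of doses. The brain isoform ACSL6 had 0 to 21 counts per library, too few to compare. The summed FPKM of the family was 42.1 ± 2.12 at 40 mM and 46.7 ± 1.81 at 0 mM (SD, n = 3).

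**Figure D2:**
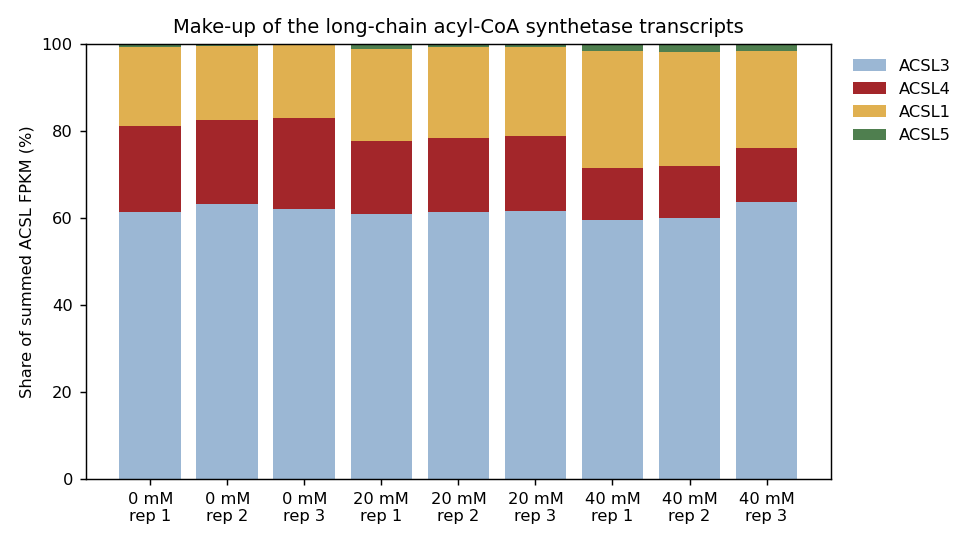
Share of the summed ACSL FPKM, in percent, held by ACSL3, ACSL4, ACSL1 and ACSL5 in each of the 9 libraries, as stacked bars that fill the whole axis. The ACSL4 band narrows to 12.2% at 40 mM, against 20.0% at 0 mM, while the ACSL1 band widens to 25.1%, against 17.3%; ACSL6 is too small to be seen.

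Both acyltransferases fell at 20 mM. LPCAT1, which places saturated chains into phosphatidylcholine and is known from lung surfactant, had 15.5, 15.6 and 14.8 FPKM at 0 mM, 12.9, 12.6 and 13.1 FPKM at 20 mM, and 12.3, 13.2 and 12.3 FPKM at 40 mM. Both doses lay wholly below 0 mM and overlapped each other. LPCAT1 fell at 40 against 0 mM by 0.31 ± 0.04 on the log2 scale (adjusted p = 0.00011, edgeR) and at 20 against 0 mM by 0.25 ± 0.04 (adjusted p = 0.0014, edgeR). The change at 40 against 20 mM was -0.06 ± 0.04 (95% interval -0.15 to 0.04, adjusted p = 0.34, edgeR).

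LPCAT3, which places arachidonic acid into phosphatidylcholine and phosphatidylethanolamine, had 4.67, 5.17 and 5.07 FPKM at 0 mM, 3.89, 3.79 and 4.0 FPKM at 20 mM, and 3.69, 3.99 and 5.16 FPKM at 40 mM. The 20 mM libraries all lay below 0 mM, whereas at 40 mM replicate 3 reached the 0 mM level and the other libraries did not. LPCAT3 fell at 20 against 0 mM by 0.35 ± 0.11 on the log2 scale (adjusted p = 0.03, edgeR), a call lost without replicate 2 or 3 of 0 mM or any 1 library of 20 mM, at -0.37 to -0.33 with adjusted p = 0.063 to 0.093, and lost with no filter (adjusted p = 0.086, edgeR). At 40 against 0 mM the change was -0.25 ± 0.11 (adjusted p = 0.071, edgeR), and without replicate 3 of 40 mM it was -0.41 with adjusted p = 0.00048. DESeq2 on all libraries called it lower (-0.25, adjusted p = 0.042). At 40 against 20 mM it was 0.10 ± 0.11 (adjusted p = 0.51, edgeR), and -0.06 without that library. LPCAT3 overlaps EMG1, a ribosome assembly gene, by 3752 bases on the opposite strand. EMG1, singled out after its values were seen, averaged 24.1 ± 2.70 FPKM at 40 mM and 24.2 ± 0.938 FPKM at 0 mM (SD, n = 3), a log2 fold change of -0.04 ± 0.07 (adjusted p = 0.62, edgeR).

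The desaturases and ELOVL5 moved little. SCD, which makes monounsaturated chains from saturated ones, was the most abundant of the 10 genes at 64.5, 66.5 and 69.5 FPKM at 0 mM, 66.8, 66.3 and 66.3 FPKM at 20 mM, and 71.8, 73.0 and 75.7 FPKM at 40 mM. The 40 mM libraries lay above all others. SCD rose at 40 against 0 mM by 0.10 ± 0.04 on the log2 scale (adjusted p = 0.04, edgeR) and at 40 against 20 mM by 0.11 ± 0.04 (adjusted p = 0.049, edgeR). The first call was kept only without replicate 3 of 0 mM or replicate 1 of 40 mM and lost on leaving out any of the other 7 libraries (0.08 to 0.11, adjusted p = 0.055 to 0.14); the second was kept only without replicate 3 of 0 mM (otherwise 0.09 to 0.13, adjusted p = 0.055 to 0.14). Both were lost with no filter (adjusted p = 0.13 and 0.16, edgeR) and with only the 6 libraries compared (adjusted p = 0.094 and 0.083, edgeR), and the second also with median-of-ratios scaling (adjusted p = 0.05, edgeR). At 20 against 0 mM the change was -0.01 ± 0.04 (adjusted p = 0.87, edgeR).

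FADS1, which introduces the last double bond of arachidonic acid, had 13.9, 13.7 and 14.1 FPKM at 0 mM, 14.6, 14.2 and 13.9 FPKM at 20 mM, and 13.9, 14.0 and 14.8 FPKM at 40 mM. The doses overlapped throughout. Its log2 fold change at 40 against 0 mM was 0.00 ± 0.04, with a 95% interval of -0.09 to 0.09 (adjusted p = 0.99, edgeR). FADS2, the desaturase that opens the polyunsaturated pathway, had 4.22, 3.97 and 3.69 FPKM at 0 mM, 3.58, 3.48 and 3.34 FPKM at 20 mM, and 3.84, 3.38 and 4.14 FPKM at 40 mM. The 20 mM libraries lay below 0 mM and 40 mM overlapped both. The change was -0.19 ± 0.08 at 20 against 0 mM (adjusted p = 0.081, edgeR), which passed without replicate 2 or 3 of 40 mM (-0.19, adjusted p = 0.04 and 0.034) and with only the 6 libraries compared (adjusted p = 0.025), and -0.10 ± 0.08 at 40 against 0 mM (adjusted p = 0.31, edgeR).

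FADS1 and FADS2 share a locus on chromosome 11, where their deposited spans overlap by 29692 bases on opposite strands and FADS2 overlaps the replication gene FEN1 by 4259 bases on the same strand. FEN1 was far more abundant, at 60.9 ± 7.77 FPKM at 40 mM and 75.6 ± 5.37 FPKM at 0 mM (SD, n = 3), and fell by 0.35 ± 0.08 on the log2 scale (adjusted p = 0.0047, edgeR), so FADS2 values are uncertain to the extent that reads were shared. The log2 ratio of FADS2 to SCD averaged -4.28 ± 0.132 at 40 mM, -4.26 ± 0.046 at 20 mM and -4.08 ± 0.151 at 0 mM (SD, n = 3). Exact permutation tests gave p = 0.3 for 40 against 0 mM, 0.2 for 20 against 0 mM and 0.9 for 40 against 20 mM. Of the 7 other genes around the locus 6 were tested, and at 40 against 0 mM FADS3 (0.52 ± 0.06), FTH1 (0.65 ± 0.07) and BEST1 (4.03 ± 0.49) rose on the log2 scale and FEN1 fell, while RAB3IL1 (0.02 ± 0.09) and TMEM258 (-0.31 ± 0.15) did not pass and MYRF was under the filter. BEST1 and the ferritin gene FTH1, at a mean of 9.09 and 1730 FPKM, overlap in the deposited positions, so reads of this pair may not be told apart.

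ELOVL5, which elongates polyunsaturated chains, had 29, 28 and 28.1 FPKM at 0 mM, 30.4, 27.6 and 28.6 FPKM at 20 mM, and 26.5, 27.6 and 25.4 FPKM at 40 mM. The 40 mM libraries lay just below 0 mM and touched the lowest 20 mM library. ELOVL5 fell by 0.13 ± 0.05 at 40 against 0 mM and by 0.15 ± 0.05 at 40 against 20 mM on the log2 scale (adjusted p = 0.035 each, edgeR). The first call was lost without any 1 library of 0 mM or replicate 1 or 3 of 40 mM (-0.15 to -0.11, adjusted p = 0.052 to 0.12), and the second without replicate 2 of 0 mM, replicate 1 or 3 of 20 mM, or replicate 1 or 3 of 40 mM (-0.16 to -0.11, adjusted p = 0.051 to 0.13). Both were lost with no filter (adjusted p = 0.055 and 0.066, edgeR) and under the 3 limma fits (adjusted p = 0.12 to 0.33 for the first and 0.11 to 0.31 for the second), where log2(TPM + 1) gave -0.07 and -0.09. The first was also lost with the filter at 5 FPKM (-0.11, adjusted p = 0.056, edgeR) and the second with only the 6 libraries compared (adjusted p = 0.065, edgeR). At 20 against 0 mM the change was 0.02 ± 0.05 (adjusted p = 0.79, edgeR).

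**Figure D3:**
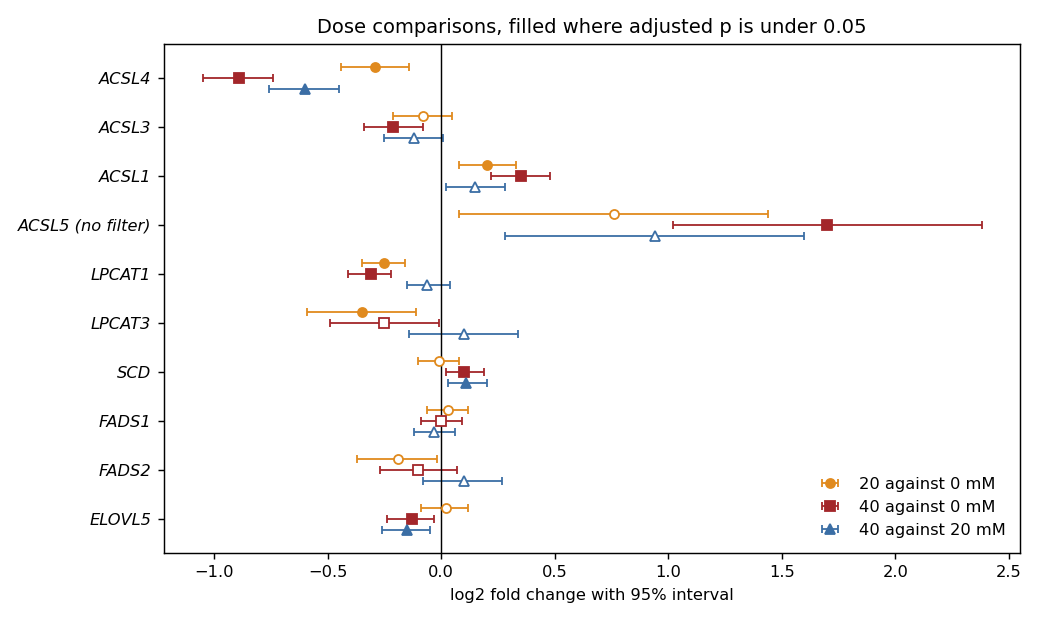
Log2 fold changes of the 10 genes in the 3 dose comparisons with 95% intervals (edgeR, 9 libraries in 1 fit), filled where the adjusted p is under 0.05. ACSL4 lies to the left of 0 in all 3 comparisons, down to -0.89 at 40 against 0 mM, and ACSL5, from the fit with no filter, has the widest intervals and reaches 1.70.

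Ordered by mean FPKM over the 9 libraries, SCD (68.9) stood first, followed by ELOVL5 (27.9) and ACSL3 (27.4), FADS1 (14.1) and LPCAT1 (13.6), ACSL1 (9.31) and ACSL4 (7.37), LPCAT3 (4.38) and FADS2 (3.74), and ACSL5 (0.423). ELOVL5 and ACSL3 overlapped at every dose, and LPCAT3 and FADS2 at 40 mM. In FPKM, FADS1 lay below LPCAT1 in every library at 0 mM and above it at 20 and 40 mM. The deposited counts and FPKM imply a length of 11.3 to 11.5 kb for FADS1 and 7.14 to 7.3 kb for LPCAT1, and the order of the 2 genes depends on these lengths. ACSL4 lay above ACSL1 in each library at 0 mM and below it in each library at 20 and 40 mM.

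Over the 9 libraries, ACSL3 (Pearson r = 0.88), LPCAT1 (0.80) and ELOVL5 (0.68) ran with ACSL4 in log2(CPM + 1), and ACSL1 (-0.86) and SCD (-0.70) against it; LPCAT3 (0.50), FADS2 (0.18) and FADS1 (0.13) were less alike. These are descriptions over libraries that share the 3 doses, so any gene that steps with dose scores high, and 407 tested genes exceeded 0.95. Among the most alike outside the 10 genes were the locus listed as AC134978 (0.994), the splicing gene SNRPB2 (0.993), the liver glycogen phosphorylase PYGL (0.992) and SRP72 (0.992), a subunit of the signal recognition particle. PYGL, for one, averaged 17.3 FPKM at 0 mM, 14.7 FPKM at 20 mM and 11.5 FPKM at 40 mM.

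Among the enzymes around the 10 genes, 11 lists were read at 40 against 0 mM, where 28.8% of all tested genes rose and 27.4% fell; the log2 fold changes that follow are from edgeR with adjusted p under 0.05 unless stated. Fatty acid synthesis had all 9 tested members called, 7 lower and 2 higher, with a median of -0.32. Leaving out 1 library gave 7 to 9 called and the other alternatives 6 to 9, and at 20 against 0 mM 2 fell and 2 rose. The 2 higher at 40 against 0 mM were ME1 (0.25 ± 0.04) and ACSS2 (0.27 ± 0.09). FASN, which builds palmitate, fell by 0.80 ± 0.07, with 31.0 ± 2.66 FPKM at 40 mM and 52.8 ± 4.06 FPKM at 0 mM (SD, n = 3), the mitochondrial malonyltransferase MCAT by 0.47 ± 0.13 and the citrate carrier SLC25A1 by 0.43 ± 0.06. Of 20 tested genes of fatty acid oxidation 9 fell and 3 rose (median -0.14): CPT2, the inner carnitine palmitoyltransferase, fell by 1.03 ± 0.07, the acyl-CoA dehydrogenase ACADM by 0.84 ± 0.06, the hydroxyacyl-CoA dehydrogenase HADH by 0.75 ± 0.06 and the rate-setting CPT1A by 0.14 ± 0.05. CPT1A did not move in 1 direction: it fell by 0.36 ± 0.05 at 20 against 0 mM and rose by 0.22 ± 0.05 at 40 against 20 mM (adjusted p = 0.00059 and 0.011, edgeR).

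The phospholipase A2 list, which also holds related hydrolases, had 4 of 10 higher and 2 lower (median 0.20), with PLA2G6 at 0.91 ± 0.09, the lysosomal PLA2G15 at 0.59 ± 0.06 and PNPLA8 at 0.54 ± 0.08. The 2 called lower were PAFAH1B3 (-0.25 ± 0.09), whose FPKM ranges overlapped, and PAFAH1B2 (-0.18 ± 0.05), both among the related hydrolases. Genes of this list under the filter went both ways. PLA2G7 averaged 0.268 FPKM at 40 mM and 0.772 FPKM at 0 mM, without overlap. PLA2G4B averaged 0.593 and 0.0976 FPKM at these doses, without overlap, and PLA2G4C 0.0514 and 0.0257 FPKM, with overlap. Of 12 other lysophospholipid acyltransferases 4 rose and 1 fell (median 0.02): MBOAT1 changed by 0.62 ± 0.15, LPCAT2 by -0.45 ± 0.05 and TAZ, the tafazzin gene of cardiolipin remodelling, by 0.42 ± 0.07. Of 6 other acyl-CoA synthetases 2 rose and 2 fell (median -0.19), with the transport protein SLC27A1 at 0.55 ± 0.08, ACSF3 at -0.46 ± 0.07 and ACSS2, which also stands in the synthesis list, at 0.27 ± 0.09. Of 12 other tested desaturases, elongases and their partners 5 rose and 1 fell (median 0.10). HACD2, a dehydratase of the elongation cycle, changed by 0.55 ± 0.06, FADS3 by 0.52 ± 0.06 and the electron donor CYB5A by -0.45 ± 0.09. Under the filter, ELOVL2 averaged 0.164 FPKM at 40 mM and 0.486 FPKM at 0 mM, without overlap. SCD5, ELOVL3, ELOVL7 and HACD4, also under it, overlapped between these doses.

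Of 14 regulators of these genes 2 rose and 4 fell (median 0.03), with SCAP at -0.34 ± 0.05, PPARD at 0.34 ± 0.10 and RXRA at -0.32 ± 0.09. SREBF1 and SREBF2, whose products switch on lipid synthesis, changed by -0.16 ± 0.12 and 0.02 ± 0.06 and did not pass (adjusted p = 0.29 and 0.77, edgeR). INSIG1, a target and brake of that pathway, fell at 20 against 0 mM by 0.25 ± 0.07 (adjusted p = 0.026, edgeR), with a change of 0.04 ± 0.07 at 40 against 0 mM (adjusted p = 0.66, edgeR). Of the enzymes of lipid peroxidation 3 were tested: POR, which feeds electrons to cytochrome P450 enzymes, rose by 0.52 ± 0.05, PEBP1, a partner of lipoxygenases, rose by 0.27 ± 0.04, and the other did not pass. The lipoxygenases measured averaged 0.000901 to 0.26 FPKM over the 9 libraries, all under the filter. At 40 mM ALOXE3 averaged 0.271 FPKM and ALOX12B 0.038 FPKM, against 0.0548 and 0.00906 FPKM at 0 mM, without overlap. ALOX5, ALOX12 and ALOX15B overlapped between these doses, and ALOX15 was not found by that name among the 37118 genes. PTGS2, under the filter, had 0.575 ± 0.136 FPKM at 40 mM and 0.198 ± 0.0485 FPKM at 0 mM (SD, n = 3) and rose by 1.49 ± 0.27 in the fit with no filter (adjusted p = 0.0026, edgeR).

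Of 11 genes of lipid uptake and droplets 3 rose and 3 fell (median 0.02), with VLDLR, a lipoprotein receptor, at 1.48 ± 0.09, HILPDA at -0.46 ± 0.11 and DGAT1 at -0.37 ± 0.09, while the droplet coat gene PLIN2 changed by 0.09 ± 0.05 (adjusted p = 0.17, edgeR). VLDLR had 0.911 FPKM at 0 mM, 3.11 FPKM at 20 mM and 2.61 FPKM at 40 mM. Of 7 genes of ether lipid synthesis 2 rose and 1 fell (median 0.10): TMEM189 changed by 0.38 ± 0.07, GNPAT by 0.35 ± 0.07 and SELENOI by -0.16 ± 0.06.

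**Figure D4:**
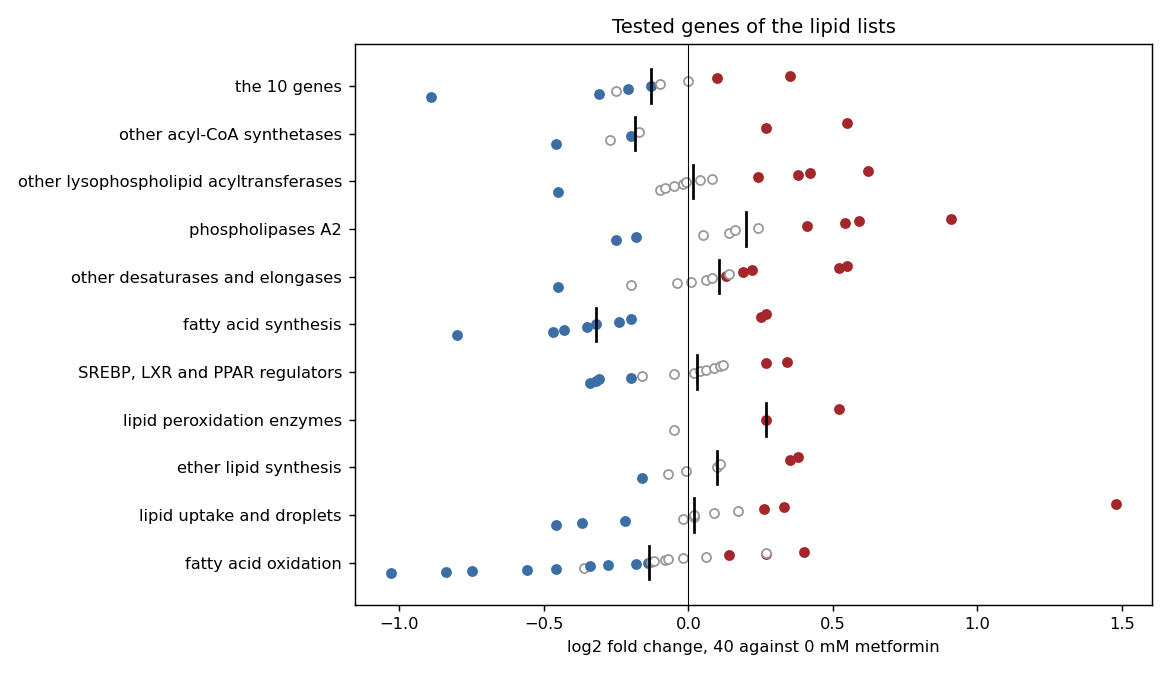
Log2 fold change at 40 against 0 mM of the tested genes of each list, 1 point per gene, red where called higher, blue where called lower and open where not called, with the list median as a bar. The fatty acid synthesis points lie mostly left of 0 (median -0.32), the phospholipase A2 points mostly right (median 0.20), and ACSL4 is the leftmost of the 10 genes at -0.89.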

How the data were processed

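Polyadenylated RNA was captured from total RNA and strand-specific paired-end libraries were sequenced on an Illumina NovaSeq, per the labels' protocols. The authors deposited 1 table for the series whose columns are, per the file headers, raw read counts and FPKM values of every gene in every library. The submitters' processing notes name StringTie 2.1.6 without its role. No source used here gives the aligner, annotation, genome build or the strand setting of the counting. The deposited span shares its start or end with GENCODE 29 on GRCh38 for 7 of the 10 genes.

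Genes with a mean of at least 1 FPKM over the 9 libraries were tested (12394 of 37118, holding 98.74% of the counts) with edgeR 4.0.16 in R 4.3.3: TMM scaling, quasi-likelihood test, all 9 libraries in 1 fit with dose as the factor, Benjamini-Hochberg over all tested genes, call at an adjusted p under 0.05. "Rose" and "fell" refer to calls. The tests of ratios within a library are exact permutation tests, for which 3 against 3 libraries cannot go below p = 0.1. The SE beside each change gives its precision and includes the spread between libraries. FPKM are per length, so levels of different genes were compared on that scale alone. The test was also run on counts simulated from its own fitted spread, and no conclusion about these libraries is drawn from that run.

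The 10 genes, the other lists and the alternatives were chosen with earlier results of these data known. Named outside the 10 were, from each list, up to 3 called genes with the largest change at 40 against 0 mM, the neighbours of FADS1 and FADS2, 8 further genes of interest, and the 5 most like ACSL4, of which 1 is not reported here. Alternatives were no filter, a filter at 5 FPKM, median-of-ratios scaling, DESeq2 1.42.0, limma 3.58.1 on log2(FPKM + 1), log2(FPKM + 0.1) and log2(TPM + 1), only the 6 libraries compared, a replicate block, a threshold of 0.01 and each library left out in turn.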

Additional observations from a re-analysis of the deposited data

How the results depend on the processing

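The ACSL4 changes kept direction and call in every alternative tried, from -0.94 to -0.75 at 40 against 0 mM, -0.32 to -0.23 at 20 against 0 mM and -0.65 to -0.49 at 40 against 20 mM (log2). The LPCAT1 falls at each dose against 0 mM, the ACSL1 rise at 40 against 0 mM and the ACSL5 rise at 40 against 0 mM (1.43 to 1.93) also kept theirs.

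Of the 9 tested genes 4, 6 and 3 were called at 20 against 0, 40 against 0 and 40 against 20 mM. With no filter, where all 10 were tested, 2 were called in the first of these and 1 in the last. At an adjusted p under 0.01 there were 2, 3 and 1 at 20 against 0, 40 against 0 and 40 against 20 mM. With only the 6 libraries compared, 1 was left at 40 against 20 mM. Leaving out 1 library gave 2 to 5, 4 to 5 and 1 to 3 in the same order. Over all genes, 3911, 6962 and 3637 were called; a filter at 5 FPKM, which tests fewer genes, gave 2517, 4245 and 2367, a threshold of 0.01 gave 2167 and 1858 at 20 against 0 and 40 against 20 mM, and leaving out 1 library gave 2731 to 4966, 6049 to 7135 and 2408 to 4065.

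Deviations of same-numbered libraries correlated at -0.042 to 0.222, and those of differently numbered libraries at -0.222 to 0.0882. Whether the replicate numbers pair the libraries was not tested, and the main fit used no replicate block. With a replicate block the ACSL4 difference of steps was -0.32 and passed (adjusted p = 0.036, edgeR), as did LPCAT3 at 40 against 0 mM (-0.26, adjusted p = 0.037) and ACSL3 at 40 against 20 mM (-0.13, adjusted p = 0.033); leaving out 1 library, the ACSL4 difference ran from -0.39 to -0.24. At a threshold of 0.01, ACSL1 and LPCAT3 at 20 against 0 mM, ACSL3, SCD and ELOVL5 at 40 against 0 mM and SCD and ELOVL5 at 40 against 20 mM were no longer called.

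Direction changed for values near 0, none of them called; the cause was not tested. SCD at 20 against 0 mM was 0.01 with a filter at 5 FPKM and 0.02 without replicate 3 of 0 mM, and ELOVL5 there was -0.02 without replicate 1 of 20 mM. FADS1 at 40 against 0 mM was -0.01 with no filter, -0.00 with median-of-ratios scaling, DESeq2 or only 6 libraries, and as low as -0.03 on leaving out 1 library. At 40 against 20 mM limma on log2(TPM + 1) gave 0.01 for LPCAT1 and 0.03 for FADS1, limma on log2 FPKM gave 0.00 for FADS1, and LPCAT3 ran from -0.06 (without replicate 3 of 40 mM) to 0.20 on leaving out 1 library. The difference of steps under limma on log2(TPM + 1) was 0.01 for ACSL1, 0.03 for ACSL3 and 0.01 for FADS1; leaving out 1 library it ran from -0.11 to 0.00 for ACSL1, from -0.11 to 0.02 for ACSL3 and from -0.12 to 0.76 for ACSL5 (-0.12, -0.04 and -0.01 without replicate 2 or 3 of 20 mM or replicate 1 of 0 mM). The FADS2 to SCD log2 ratio at 40 against 20 mM ran from -0.07 to 0.05, with 0.05 without replicate 2 of 40 mM. ACSL5 fits that leave out a library or change the scaling were added after seeing the data. The lowest depth was that of ACSL5, with 44 to 282 counts per library, and of ACSL6, with 0 to 21.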
